A study of Mus musculus with 6 samples.

Results

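The expression profile of the ventromedial hypothalamus of control mice was described from 3 RNA pools, called control 1, control 2 and control 3. The mice were homozygous for a floxed Sirt1 allele (genotype Sirt1loxP/loxP in the labels, which name no Cre for these pools), on a mixed genetic background, and were 16 weeks old. Every control therefore carried loxP sites in both copies of Sirt1, a NAD-dependent deacetylase, and stood as the reference for mice in which Sirt1 was deleted in SF1 neurons. The sources used here do not state how many animals, or of which sex, made up a pool, so the spread between pools is a spread between pooled samples and not between animals. The series has 6 pools, of which these 3 were used, and no comparison between groups was made.

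Each pool was hybridised to 1 Illumina bead array with 45281 probes. A probe counted as detected when its detection p-value, the deposited measure of how a signal compares with the array's background, was under 0.05 on all 3 control arrays. This held for 18417 probes (40.7%), while 22644 probes were detected on none of the arrays and 4220 on 1 or 2. A gene was represented by its brightest detected probe, and genes were ranked by the mean raw signal, a bead intensity on a linear scale, over the 3 pools. Of 19057 gene symbols with a probe, 10312 were detected (54.1%), and these are the genes described here. Their mean raw signals ran from 151.6 to 35650 with a median of 379.8. Brightness depends on the probe as well as on the transcript: among the 3787 genes with more than 1 detected probe, the brightest exceeded the dimmest by a median of 1.93-fold. Ranks therefore order probe signals and not amounts of transcript.

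The ventromedial nucleus is a cell group of the mediobasal hypothalamus that takes part in the control of energy balance, glucose counter-regulation, defensive behaviour and female sexual behaviour. Most of its neurons release glutamate, and in the mouse its dorsomedial portion is defined by SF1, the nuclear receptor encoded by Nr5a1. It lies between the arcuate nucleus, the lateral hypothalamic area and the dorsomedial nucleus, whose neurons are known by their peptides.

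The tissue label was set against 7 marker genes, and all 7 were detected in each pool. The markers were chosen with earlier results of these data known, so their detection is a description and no independent check of the label. Fezf1, a zinc-finger transcription factor needed in the mouse for the formation of ventromedial neurons, had raw signals of 4143, 4186 and 4188 in control 1, control 2 and control 3. Calb2, which encodes the calcium-binding protein calretinin, reached 6933, 8256 and 8477. Rbfox1, a neuronal regulator of splicing, gave 5102, 6254 and 6184. Fezf1 was nearly equal in the 3 pools, whereas Calb2 and Rbfox1 were lowest in control 1. Tac1, the precursor of substance P and neurokinin A, stood at 2493, 2247 and 2840. Cckbr, a receptor for cholecystokinin and gastrin, measured 1023, 1149 and 1230. Gpr149, an orphan G protein-coupled receptor, had 750, 794 and 886. The last 2 were lowest in control 1 and highest in control 3, and Tac1 was lowest in control 2. Sox14, a transcription factor of the SOX family, was the dimmest of the 7 at 523, 581 and 541. Among the 10312 genes the markers ranked 157 (Calb2), 263 (Rbfox1), 434 (Fezf1), 839 (Tac1), 2038 (Cckbr), 2785 (Gpr149) and 3911 (Sox14).

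**Figure D1:**
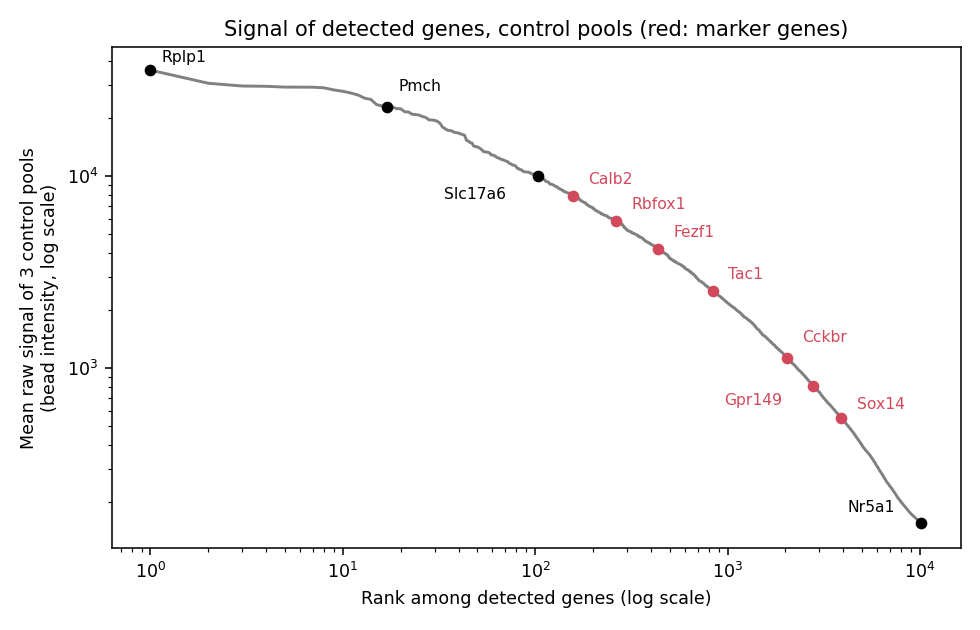
Mean raw signal of the 3 control pools (bead intensity, log scale) against the rank of each of the 10312 detected genes (log scale). The 7 marker genes in red lie between rank 157 (Calb2) and rank 3911 (Sox14), Rplp1 is the brightest gene, and Nr5a1 at rank 10186 lies at the dim end.

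A wider list of genes known from ventromedial neurons had 29 with a probe, of which 26 were detected (89.7%, against the 54.1% of all symbols). Its brightest member was a transmitter gene. Slc17a6, the vesicular glutamate transporter VGLUT2, ranked 103 with signals of 9867, 10054 and 10180. Pdyn, the precursor of dynorphins, gave 4790, 5014 and 5434. Adcyap1, which encodes the peptide PACAP, gave 1868, 1997 and 1986. All 3 genes were lowest in control 1, and none of the raw signals differed by 1.2-fold. Bdnf, a neurotrophin with a role in feeding, was dimmer (294, 310 and 294).

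Among transcription factors and cofactors of the list, Nkx2-2 gave 654, 626 and 658 and Nkx2-1 gave 494, 540 and 532. Both encode homeodomain proteins of the ventral forebrain. Ldb2, a LIM-domain-binding cofactor, reached 1212, 1326 and 1438. Nr2f2, the orphan nuclear receptor COUP-TFII, had 248, 327 and 306, and its log2 SD of 0.37 was the largest of the list. Vgll2, a cofactor of TEAD proteins, stood at 167, 186 and 178. These genes showed no common order of the pools: control 1 was lowest for Ldb2, Nkx2-1, Nr2f2 and Vgll2 but not for Nkx2-2.

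Nr5a1 and the steroid hormone receptors of the list lay near the detection limit. Nr5a1, which defines the SF1 neurons, had signals of 159, 152 and 156 and ranked 10186 of 10312, with 1 of its 2 probes detected. The lowest detected signal on any probe was 153.6, 151.3 and 148.8 in control 1, control 2 and control 3, so this probe stood barely above it on every array. Esr1, the estrogen receptor alpha of the ventrolateral part of the nucleus, gave 178, 172 and 167. Pgr, the progesterone receptor, measured 158, 170 and 171. Esr1 was highest and Pgr lowest in control 1, at signals this near to background. Lepr, the leptin receptor, and Crhr2, a receptor for urocortins, were detected on no array, and Foxp2, a forkhead transcription factor, on 1 array.

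The other detected members of the list covered a wide range of signal. Dlk1, an imprinted membrane protein with epidermal growth factor repeats, gave 2386, 2417 and 2220. Amigo2, a cell adhesion protein, gave 2071, 2110 and 2246, and Nptx2, a synaptic pentraxin, gave 1800, 1777 and 1940. Slit3, an axon guidance ligand, stood at 348, 361 and 362. Nos1, the neuronal nitric oxide synthase, reached 246, 276 and 257. Tnfrsf11b, the decoy receptor osteoprotegerin (169, 169 and 164), and Cnr1, the cannabinoid receptor of neurons (154, 157 and 166), were close to background. The mean log2 intensity of the 26 detected members after background correction and quantile normalisation was 8.99, 9.12 and 9.14 in control 1, control 2 and control 3, and 17 of the 26 were lowest in control 1, as were 36.0% of all detected genes.

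**Figure D2:**
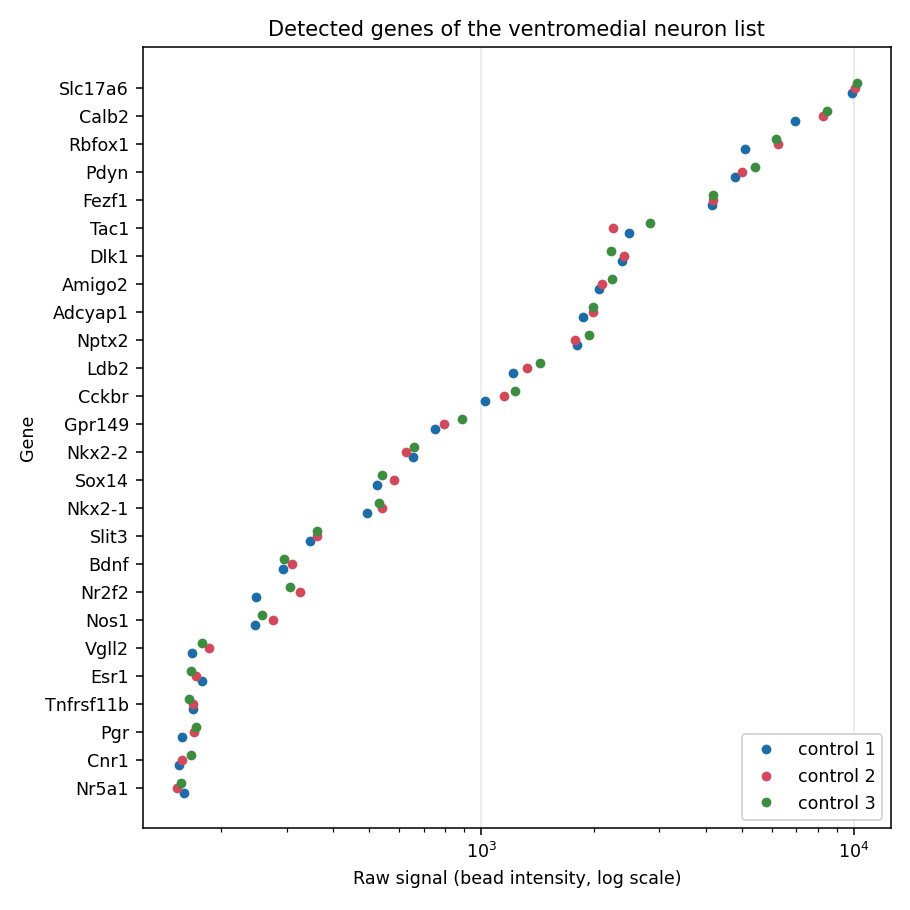
Raw signal (bead intensity, log scale) of the 26 detected genes of the ventromedial neuron list in each of the 3 control pools. Points of a gene are 1 pool each; Slc17a6 is brightest at about 10054, Nr5a1 dimmest near 156, and Nr2f2 shows the largest gap of control 1 (248) from the other pools.

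Proteins that sort, cleave and store peptides in dense-core vesicles formed one of the brighter lists: 13 of 15 genes with a probe were detected (86.7%) and 8 of these lay among the brightest 10% of detected genes. Cpe, the carboxypeptidase that trims peptide precursors, gave 18039, 15094 and 16231 and was highest in control 1. Scg2, the granin that yields secretoneurin, gave 7297, 6620 and 7840. Scg5, the chaperone of the convertase PC2, gave 4905, 5070 and 4806. No pool was highest for all of them. Cadps2, a priming factor for dense-core vesicles, measured 3758, 3826 and 4279, and Vgf, a nerve growth factor inducible peptide precursor, measured 3418, 3642 and 3729. Pcsk1, the convertase PC1/3, was detected on no array.

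Promoter windows of these genes were read from RefSeq (GRCm38.p6, 250 bases before to 50 after each gene start), and 14 genes of the list had a window. The full cAMP response element TGACGTCA, a palindrome that reads the same on both strands, stood in 3 of their 16 windows (18.8%), against 588 of 32851 promoter windows in all (1.79%). The motif was chosen after the windows had been counted, so these counts are a description. The element also stood in 3 of 44 windows of peptide precursors (6.82%) and in 2 of 30 windows of immediate early genes (6.67%). Stretches of 60 bases around the element are shown for the 3 genes because they are the members that hold the element. Of these, Scg2 and Chgb (chromogranin B, 1803, 1664 and 1710, rank 1339, named after its values were seen) were detected and Pcsk1 was not. They are given 5′ to 3′ on the strand of the gene, with the element in capitals.
Scg2, chr1:79440061-79440120, minus strand: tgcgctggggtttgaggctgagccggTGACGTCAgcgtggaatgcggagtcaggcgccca
Chgb, chr2:132781544-132781603, plus strand: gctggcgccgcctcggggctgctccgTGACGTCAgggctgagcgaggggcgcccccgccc
Pcsk1, chr13:75089753-75089812, plus strand: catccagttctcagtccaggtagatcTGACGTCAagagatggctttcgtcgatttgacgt
The element began 68 bases before the gene start in Scg2, 72 in Chgb and 78 in Pcsk1. A match is no evidence that a factor binds there. The site of SF1, searched as CAAGGTCA and CAAGGCCA on both strands, stood in 1287 of all windows (3.92%) and in 0 of the 36 windows of 22 genes of the ventromedial list, which says only that these letters are not in those windows. The SF1 site stood in 5 of the 44 windows of peptide precursors (11.4%).

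The 30 brightest genes were led by housekeeping transcripts. Rplp1, a protein of the ribosomal stalk, was first with 34504, 36391 and 36055 in control 1, control 2 and control 3. Ckb, the brain creatine kinase, was second with 29862, 31296 and 30241. Of the 30, 7 encode ribosomal proteins (Rplp1, Rps29, Rpl23, Rpl41, Rpl38, Rpl37 and Rpl9), and CYTB and ND4 are mitochondrial genes of the respiratory chain. Fth1 (ferritin heavy chain), Tuba1b (alpha tubulin), Eef1a1 (an elongation factor), Ppia (cyclophilin A), Atp5b (a subunit of ATP synthase), Mt1 (a metallothionein) and Uba6 (a ubiquitin-activating enzyme) were also among them. Probes for ribosomal, tubulin and ubiquitin genes, such as that named for the pseudogene Ubb-ps, may also match near-identical copies. Genes of neurons in the group were Prnp (the prion protein), Kif1a (a kinesin of synaptic vesicle precursors), Gprasp1 (a sorting protein for G protein-coupled receptors) and Prkacb (a catalytic subunit of protein kinase A). Rtl8a, 6330403K07Rik, Zcchc18, Zwint, Wbp2, Mtch1 and Ttc3 made up the remainder apart from the peptide gene Pmch. The CV between pools ran from 0.831% for Rpl23 to 11.1% for Pmch. Annotation limits this order, since 28 of the 100 brightest probes carried no single gene symbol.

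Pmch, the precursor of melanin-concentrating hormone, a peptide of lateral hypothalamic neurons, was the brightest gene of the peptide list, at rank 17. Its signals were 25612, 20496 and 22974, so control 1 was highest and control 2 lowest. Hcrt, the orexin precursor of the same area, gave 2611, 2457 and 1894 and was lowest in control 3. The lateral hypothalamic list as a whole had 7 of 8 genes detected, and Nts, the neurotensin precursor, was dim (247, 221 and 219).

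Some peptides known from other hypothalamic nuclei were also measured in every pool, which does not show the nucleus they came from. The arcuate list had 12 of 13 genes detected. Cartpt, an anorexigenic peptide precursor, gave 9141, 9790 and 9286, Sst, the somatostatin precursor, gave 6249, 6079 and 6594, and Gal, the galanin precursor, gave 4845, 5090 and 4485. These spread little. Pomc, the precursor of alpha-MSH, gave 845, 1199 and 1047 and was lowest in control 1. Npy, an orexigenic peptide of arcuate neurons named after its values were seen, ran the other way, with log2 intensities of 9.09, 8.49 and 8.21 and its highest value in control 1. Isl1, a LIM homeodomain factor, gave 1953, 1693 and 1691, and Otp, a homeodomain factor, was detected on no array.

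Of 9 genes of the paraventricular and supraoptic nuclei 6 were detected. Avp, the vasopressin precursor, gave 5804, 7901 and 5989, with control 2 above the other pools. Oxt, the oxytocin precursor, gave 3444, 5433 and 5566, with control 1 below the other pools. Trh, the thyrotropin-releasing hormone precursor, was more even at 2742, 3128 and 2833. Avp and Oxt thus set different pools apart, and Cbln4, a synapse organiser, again showed another order (1470, 1234 and 1282). Crh, the corticotropin-releasing hormone precursor, Sim1, a transcription factor of these nuclei, and Otp were detected on no array.

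Of 10 suprachiasmatic genes 7 were detected. Zfhx3, a transcription factor, gave 892, 1065 and 948, while Rgs16, a regulator of G protein signalling, was even at 456, 447 and 452. Grp (238, 243 and 205), a bombesin-like peptide precursor, and Lhx1 (205, 225 and 199), a LIM homeodomain factor, were dim, and Vip, a peptide of the core of that nucleus, was detected on no array. By detection on all 3 arrays, the dorsomedial, mammillary and tuberomammillary list had the lowest share of the hypothalamic lists, 4 of 10, against 54.1% of all symbols. A further 4 members were detected on 1 or 2 arrays. Counted on at least 1 array, 8 of 10 were detected, so the low share depended on the rule of all 3 arrays. Hdc, the enzyme that makes histamine, was the one bright member of that list (2680, 2473 and 2649). Lhx5, Npvf and Irx5 lay between 169 and 215, and the homeodomain genes Hmx3 and Lmx1a were detected on no array.

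Across all peptide precursors, 28 of 43 genes with a probe were detected (65.1%) and 12 of these were among the brightest 10%. Crh, Vip, Npw (neuropeptide W) and Pnoc (nociceptin precursor) were detected on no array. Receptors for peptide hormones were detected at a similar share, 34 of 53 (64.2%), but only 2 stood among the brightest 10%. The brightest were Ntsr2, a neurotensin receptor that astrocytes carry (4376, 4820 and 4653), Ntrk2, the receptor of BDNF (2496, 2335 and 2370), Gpr83 (1192, 1497 and 1456), Cckbr and Ramp1, an accessory protein of the CGRP receptor (970, 1041 and 1004). Of these, Gpr83 had the widest spread and was lowest in control 1. Lepr, Cckar, Glp1r and Gcgr, the receptors of leptin, cholecystokinin, GLP-1 and glucagon, were detected on no array. For a gene on no array the data give only a bound, set by the background.

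Monoamine receptors had a share below that of all genes, 7 of 22 (31.8%). Hrh3, the histamine autoreceptor, was the brightest (490, 527 and 575), followed by Htr1d, Adra2c, Htr1a and Drd1, whose signals lay between 178 and 266. Serotonin receptors Htr2a, Htr2b, Htr2c and Htr3a were detected on no array. Nuclear receptors had 23 of 43 detected (53.5%), which is the share of all genes, and none among the brightest 10%. Rxrb (924, 972 and 939), Nr2f6 (600, 699 and 603), Ppard (569, 627 and 571), Esrra (419, 499 and 482) and Rora (435, 470 and 457) led them. Rxrb is a partner in receptor dimers, Ppard a fatty acid sensor and Esrra an orphan relative of the estrogen receptors. All 5 were lowest in control 1. After normalisation 8 of the 23 detected nuclear receptors were lowest in that pool, near the 36.0% of all detected genes. Nr0b1, the SF1 partner DAX1, and Nr0b2, Esr2 and Nr3c2 were detected on no array.

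Sirt1 itself was detected in every control pool, with signals of 358, 328 and 333 from its 1 probe and rank 5641. Of 22 genes of sirtuins and NAD metabolism, 17 were detected (77.3%), none of them among the brightest 10%. Sirt7, a nuclear sirtuin, gave 1380, 1509 and 1423, and Sirt3, a mitochondrial sirtuin, gave 1316, 1456 and 1398. Nadk, the NAD kinase, gave 1225, 1250 and 1209. Those 3 differed little between pools. Parp2 (906, 922 and 888) and Parp1 (731, 690 and 718), which use NAD to modify proteins, followed, and Nmnat1, Nmnat3, Bst1 and Qprt were detected on no array.

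Transmitter genes of both main classes were present. GABA and glycine genes had 21 of 27 detected, led by Slc32a1, the vesicular GABA transporter (5238, 5750 and 5787), Abat, the GABA transaminase (3783, 3834 and 3375), and the GABA-synthesising enzymes Gad2 (3789, 3479 and 3269) and Gad1 (2962, 2857 and 2727). Both Gad genes were highest in control 1 and lowest in control 3, whereas Slc32a1 was lowest in control 1. Gabrb1, a GABA-A receptor subunit, gave 2287, 2416 and 2416. Slc6a5, Gabra5 and Dlx5 were detected on no array. Glutamate genes had 16 of 22 detected, and after Slc17a6 came the receptor subunits Gria2 (3894, 3884 and 4168), Gria1 (2930, 2989 and 3180), Grin3a (3043, 2778 and 2821) and Grm7 (974, 956 and 1065), while Grin2d and Grm3 were on no array. Genes of monoamine and acetylcholine synthesis and transport were detected at 9 of 19 (47.4%). After Hdc, they were led by Ddc, aromatic amino acid decarboxylase (1245, 1211 and 1116), Ache, acetylcholinesterase (603, 663 and 663), Maob, monoamine oxidase B (614, 495 and 482), and Th, tyrosine hydroxylase (332, 346 and 297). Dbh, Pnmt, Slc6a2 and Slc6a4, which mark noradrenaline, adrenaline and serotonin neurons, were detected on no array.

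Pan-neuronal genes had 19 of 22 detected (86.4%) and 15 among the brightest 10%. Syp, synaptophysin, gave 14275, 12110 and 13160, Thy1, a surface glycoprotein, 9403, 9808 and 10477, and Eno2, the neuronal enolase, 10178, 9621 and 9733. Syt1, the calcium sensor of vesicle release, gave 9666, 10347 and 8911, and Vsnl1, a calcium sensor, 7212, 6540 and 6875. The level of the list, the mean log2 intensity of its detected members, differed by only 0.04 between pools. Snap25, a synaptic SNARE protein, and Nefl, a neurofilament, were detected on no array although neurons are known for both, so a gene on no array cannot be read as absent from the tissue.

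Markers of other brain regions were looked for as well. Of 15 genes of cortex, hippocampus and amygdala 8 were detected (53.3%), close to the share of all genes, with Camk2a (1713, 1573 and 1817), Lmo3 (1068, 1033 and 1172), Wfs1 (996, 973 and 1101), Rprm (517, 448 and 498) and Fezf2 (328, 334 and 329) brightest. Neurod1, Neurod6, Tbr1 and Emx1, transcription factors of cortical excitatory neurons, were detected on no array. The thalamic list had 6 of 9 detected, but Slc17a6 leads it and is also a ventromedial gene. Its others were Ntng1 (874, 923 and 965), Rora, Tcf7l2 (385, 359 and 371) and Prkcd (216, 213 and 227), and Synpo2 and Lef1 were on no array. All 8 striatal genes with a probe were detected, but the brightest, Isl1, is also in the arcuate list. Next were Rgs9 (1570, 1659 and 1507), Ppp1r1b (316, 361 and 359), Penk (219, 228 and 220) and Drd1 (188, 178 and 210). None of the 8 reached the brightest 10%, and their median rank was 7872. At a detection p under 0.01, 6 of the 8 were detected. Of 10 pituitary genes 1 was detected: Gh, growth hormone, at 177, 168 and 176. Prl, Tshb, Lhb and Fshb, which encode prolactin and the beta subunits of other pituitary hormones, were detected on no array.

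**Figure D3:**
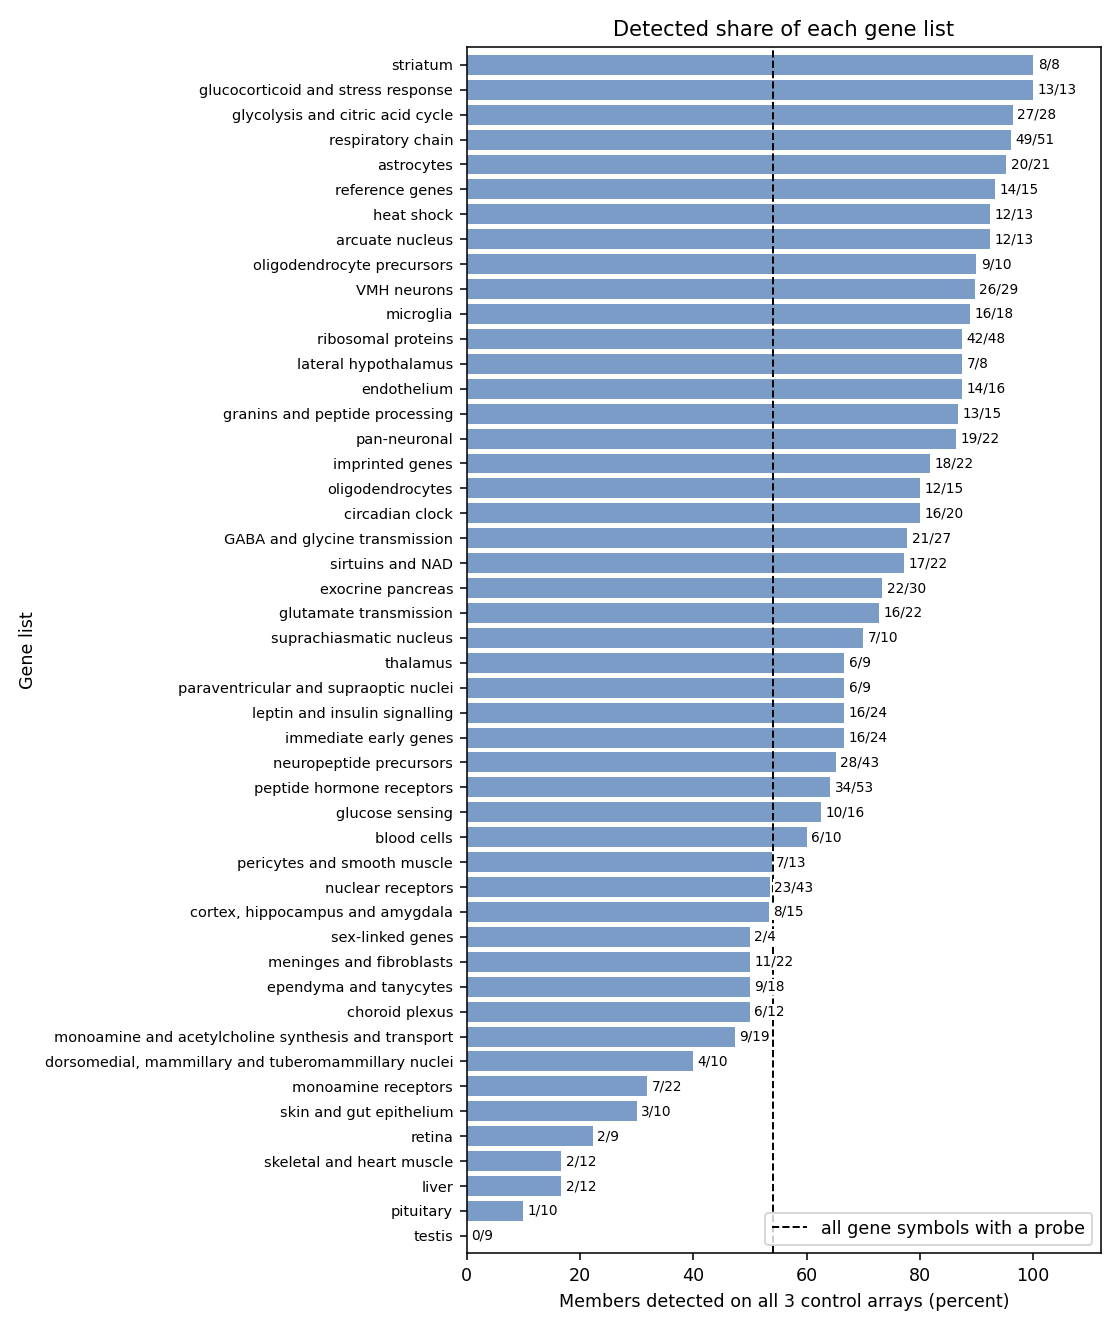
Percent of the members with a probe that were detected on all 3 control arrays, for each of the 48 gene lists, with counts beside the bars. The dashed line is the 54.1% of all gene symbols; the ventromedial list (26/29) lies right of it, as do those of striatum (8/8), arcuate nucleus (12/13) and exocrine pancreas (22/30), and the lists of pituitary (1/10), liver, muscle and testis (0/9) lie left of it.

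Glial genes were widely detected. Astrocytes had 20 of 21 (95.2%), among them Cst3, the protease inhibitor cystatin C (17120, 16044 and 17125), Slc1a3, the glutamate transporter GLAST (14930, 11062 and 11367), Aldoc, aldolase C (9998, 9510 and 10397), and Gja1, connexin 43 (6587, 6526 and 5955). Slc1a3 stood out by its higher signal in control 1, which Cst3, Aldoc and Gja1 did not share to that degree, and Mlc1 was on no array. Oligodendrocytes had 12 of 15, led by the myelin genes Mbp (14951, 14347 and 13653), Cldn11 (4432, 4392 and 4218) and Mag (1825, 2113 and 1918), then Trf (1232, 1289 and 1249) and Qdpr (1375, 1145 and 1122). Ermn and Gjb1 were on no array. Oligodendrocyte precursors had 9 of 10, led by Olig1 (4490, 5207 and 4462), Bcas1 (4491, 4440 and 4432), Sox10 (814, 878 and 895), Pdgfra (739, 759 and 776) and Gpr17 (650, 478 and 519), with Olig2 on no array. Microglia had 16 of 18, led by Laptm5 (1695, 1769 and 1720), the complement genes C1qb (621, 634 and 617) and C1qc (591, 626 and 626), Cx3cr1, the fractalkine receptor (360, 448 and 498), and Csf1r, the CSF1 receptor (332, 356 and 343). Cx3cr1 was lowest in control 1, and Itgam was on no array.

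Genes of vessels, ventricle walls and blood were also looked for. The endothelial share lay above the 54.1% of all symbols. The shares of the pericyte and smooth muscle, ependymal and tanycyte, and choroid plexus lists lay below it. The counts of those lists alone therefore do not show that these tissues were present in the pools. Endothelial genes had 14 of 16 detected: Slc2a1, the glucose transporter of the blood-brain barrier (1526, 1692 and 1592), Egfl7 (1009, 1126 and 1181), Flt1 (796, 844 and 814), Itm2a (753, 668 and 842) and Ly6c1 (774, 673 and 665) were brightest, and Abcb1a was on no array. Pericyte and smooth muscle genes had 7 of 13, with Acta2, smooth muscle actin (827, 967 and 779), Vtn (584, 792 and 715), Rgs5 (394, 360 and 309), Myl9 (216, 229 and 244) and Higd1b (174, 156 and 176), while Tagln, Anpep, Des and Cnn1 were on no array. Ependymal and tanycyte genes had 9 of 18. Fam183b (1895, 1731 and 1870), 1110017D15Rik, Rarres2 (696, 714 and 650), Dynlrb2 (517, 481 and 467) and Vim, vimentin (321, 345 and 352), were the brightest, and Foxj1, Tmem212, Dio2 and Frzb were on no array. The choroid plexus list had 6 of 12: Clic6 (1194, 1316 and 1257), Ttr, transthyretin (758, 997 and 629), Kl (235, 219 and 230), Msx1 (197, 217 and 187) and Calml4 (187, 172 and 173), with Folr1, Kcne2, Aqp1 and Otx2 on no array. Ttr was highest in control 2 and lowest in control 3.

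Haemoglobin signals were high. Hba-a1, an alpha globin, gave 6686, 8309 and 9333, Hbb-bt 6478, 8104 and 8645, and Hbb-bs, both beta globins, 5869, 7323 and 7393. Each was lowest in control 1 and highest in control 3. Globin genes are near-identical copies, so these probes cannot be told apart with certainty. Hbb-b2 (208, 217 and 215) and Alas2 (168, 183 and 181), an enzyme of haem synthesis in red cells, were dim, and Slc4a1, S100a8, S100a9 and Ptprc, which mark red cells, neutrophils and leukocytes, were detected on no array. The level of the 6 detected blood genes was 9.12, 9.38 and 9.49 in control 1, control 2 and control 3, the second widest range of the lists at 0.37.

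Genes of exocrine pancreas, the enzymes of acinar cells, were detected at 22 of 30 (73.3%), although the labels name the ventromedial hypothalamus as the only tissue. Amy2a5, an amylase, gave 3669, 3192 and 3418 and was the one member among the brightest 10%; amylase genes are near-identical copies. Cela2a, an elastase, followed with 679, 666 and 610. Rnase1 (347, 336 and 379), Clps, colipase (346, 332 and 342), and Ctrl, a chymotrypsin-like protease (263, 239 and 225), were next, and the median rank of the 22 was 8291 of 10312. Of the 22, 19 were highest in control 1, as were 34.8% of all detected genes, and the list's level was 6.66, 6.38 and 6.38. Prss2, Ctrc, Cuzd1 and 2210010C04Rik were on no array. The source of these signals was not tested. By comparison, 5 lists of liver, muscle, testis, retina, and skin and gut epithelium had 9 of 52 genes detected (17.3%): Apoa1 (230, 235 and 253), Serpina1a (154, 155 and 149), Acta1 (346, 381 and 351), Nppa (164, 158 and 150), Nrl (180, 193 and 178), Sag (162, 164 and 155), Lor (972, 1097 and 1091), Krt10 (562, 608 and 612) and Krt1 (188, 198 and 196). Defining genes such as Alb, Apob, Fgb and Fga of liver, Ckm, Myh4, Myh1 and Tnnt3 of muscle, Prm1, Tnp1, Tnp2 and Odf1 of testis, Gnat1, Pde6b, Rcvrn and Crx of retina, and Krt5, Krt14, Fabp2 and Vil1 of epithelia were on no array.

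Energy metabolism was among the most completely detected groups. The respiratory chain list had 49 of 51 genes detected (96.1%) and 34 among the brightest 10%, led by Atp5b (23162, 23711 and 22138), Cox5b (12375, 13260 and 12749), Atp5l (12132, 10836 and 12760), Atp5o (10331, 10434 and 10873) and Cox6a1 (9757, 10440 and 11328). Ndufs1 and Sdha were on no array. Glycolysis and the citric acid cycle had 27 of 28 (96.4%), with Aldoc and Eno2 followed by Tpi1 (8519, 8668 and 8787), Gapdh (8850, 7938 and 8896) and Pfkm (5827, 5094 and 5476), and Sucla2 on no array. Ribosomal proteins had 42 of 48 (87.5%), 35 of them among the brightest 10%, and Rpl6, Rpl14, Rpl17 and Rps20 on no array. The median log2 SD of the ribosomal genes was 0.06, the narrowest of the lists.

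Genes of nutrient sensing were dimmer. The glucose-sensing list had 10 of 16 detected: Slc2a3, the neuronal glucose transporter (1708, 1838 and 1894), Slc2a1, and the AMP-activated kinase subunits Prkag1 (681, 704 and 673), Prkab1 (396, 412 and 424) and Prkaa2 (265, 269 and 264) were brightest. Kcnj11, Slc2a2, Slc5a1 and Glp1r, parts of the glucose-sensing machinery of pancreatic and hypothalamic cells, were on no array. Leptin and insulin signalling had 16 of 24. Tsc2 (1864, 2125 and 1966), Pik3r1 (1421, 1458 and 1453), Irs2 (1017, 1227 and 1110), Stat3 (866, 1029 and 1089) and Sh2b1 (928, 928 and 1022) led it, and Lepr, Stat5b, Irs1 and Akt1 were on no array. Tsc2, Pik3r1, Irs2 and Stat3 were lowest in control 1, and Sh2b1 was level in control 1 and control 2. Over the list the pools were more alike. After normalisation 6 of the 16 were lowest in control 1 and 6 in control 2, against 36.0% and 32.0% of all detected genes.

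Clock genes had 16 of 20 detected. Dbp, an output factor of the clock, gave 3903, 4342 and 3816, Csnk1e 2210, 2295 and 2085, Tef 1061, 1103 and 1078, Per2 962, 995 and 950, and Bhlhe40 906, 962 and 900. All 5 were highest in control 2, and none differed by 1.2-fold between pools. After normalisation 10 of the 16 were highest in control 2, against 34.4% of all detected genes. The level of the list was nonetheless highest in control 1, at 8.64, 8.60 and 8.54 in control 1, control 2 and control 3. Per3, a clock gene named after its values were seen, was the one member among the genes with a 2-fold difference on the log2 scale (192, 161 and 154 in raw signal), with control 1 highest, and Cry1 and Bhlhe41 were on no array. Immediate early genes, which neurons switch on with activity, had 16 of 24. Egr1 gave 2366, 2493 and 2497, and after Nptx2 came Dusp1 (630, 703 and 670), Homer1 (528, 524 and 567) and Junb (437, 516 and 452), with Nr4a1, Ier2, Ier5 and Btg2 on no array. All 13 glucocorticoid-response genes were detected. Mt1 gave 21828, 22778 and 22719, Tsc22d3 (the glucocorticoid-induced leucine zipper) 1752, 1659 and 1701, Fam107a 973, 974 and 986, and Per1 675, 659 and 761. Sgk1, a serum and glucocorticoid-induced kinase, had a wider spread at 1487, 2411 and 2125, with control 1 lowest. Heat shock genes had 12 of 13, and 11 of the 12 were highest in control 1 (34.8% of all detected genes were): Hspa8 gave 12971, 11978 and 11715, Hsph1 3454, 3107 and 2809, Dnajb1 3522, 3330 and 3490, Hspd1 1888, 1531 and 1680, and Bag3 834, 833 and 751. That list's level was 8.90, 8.73 and 8.65.

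Imprinted genes, expressed from 1 parental allele, had 18 of 22 detected and 8 among the brightest 10%. Ndn, necdin, gave 12732, 12765 and 11795, Impact 8536, 8405 and 8049, Peg3 4930, 4809 and 4681, Grb10 3469, 3509 and 3592, and Gnas 3183, 3436 and 3529. Sgce and Plagl1 were on no array. Of the sex-linked genes, the Y-linked Eif2s3y (332, 317 and 328) and Kdm5d (174, 163 and 172) were detected in every pool. Uty was detected in control 1 and control 3, and the X-inactivation transcript Xist, with 4 probes, in control 1 alone. Y-linked transcripts were thus measured in each pool.

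The 3 pools were close to each other. The arrays detected 20123, 20404 and 20611 probes in control 1, control 2 and control 3, with median raw signals of 149.4, 147.7 and 145.5. Over the 10312 genes, correlations of log2 intensity were 0.993 (control 1 with control 2), 0.994 (control 1 with control 3) and 0.995 (control 2 with control 3), across genes, which are not independent replicates. The median SD between pools was 0.10 on the log2 scale after background correction with an offset of 16. Highest and lowest pool lay within 1.2-fold for 6907 genes (67.0%). They differed at least 1.5-fold for 368 genes (3.57%) and at least 2-fold for 45 genes (0.436%). The median log2 SD was 0.07 among the brightest 10% of genes and 0.15 among the dimmest 10%. The raw signal ran the other way, with a median CV of 4.81% among the brightest and 2.83% among the dimmest.

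**Figure D4:**
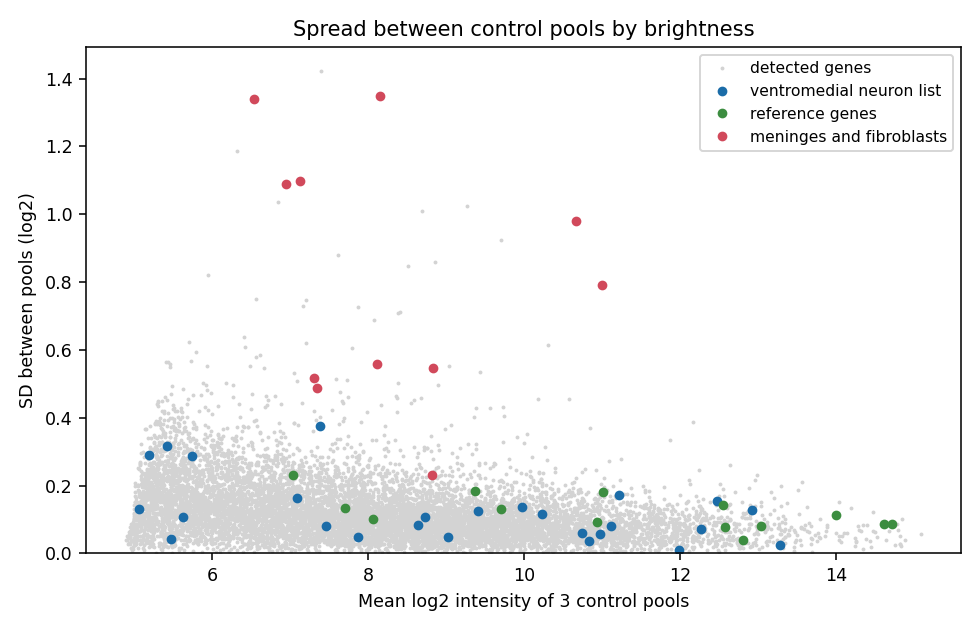
SD between the 3 control pools (log2) against mean log2 intensity for the 10312 detected genes, with 3 gene lists in colour. Most genes of the ventromedial list (blue, at most 0.37, for Nr2f2) and most reference genes (green, at most 0.23, for Rplp0) lie within the body of genes. Nr2f2 lies above it, as do most of the 11 meningeal and fibroblast genes (red).

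Among the 45 genes, control 2 was highest in 27 and control 1 lowest in 28. Both held for 22 of them (48.9%), against 19.7% of all detected genes. Leaving out control 1 moved the count most: without it 13 genes differed 2-fold, without control 2 there were 24 and without control 3 there were 29. Raw signal gave 15 genes, and 19 genes differed 2-fold in the values normalised by the authors.

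Genes of meninges and fibroblasts took up 9 of the 45. The list, which was known from earlier results of these data to vary, had 11 of 22 genes detected, and all 11 were highest in control 2 and lowest in control 1. Ptgds, the prostaglandin D synthase of the leptomeninges, gave 869, 2853 and 2219 in control 1, control 2 and control 3. Igf2, a growth factor of the meninges and choroid plexus, gave 1243, 3497 and 2404. Slc13a4, a sulfate transporter, gave 224, 725 and 507. On the log2 scale these 3 spanned 1.86, 1.56 and 2.60, and control 3 stood nearer to control 2 than to control 1 in each. Slc6a13, a GABA and taurine transporter, gave 157, 315 and 250, Slc47a1, an organic cation exporter, 187, 405 and 278, and Ogn, the proteoglycan osteoglycin, 179, 367 and 263. Control 1 was close to background for these 3. Mgp, matrix Gla protein, gave 422, 756 and 623, Fbln1, fibulin 1, 305, 510 and 428, Serping1, the C1 inhibitor, 232, 342 and 289, Aebp1 239, 348 and 286, and Dcn, decorin, 529, 667 and 549. Dcn moved least.

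The level of the 11 genes was 7.38, 8.97 and 8.43, a range of 1.59, and without control 1 the range was 0.54. In the other 46 lists with a level the range ran from 0.03 to 0.37. Of the 11 members not detected on all arrays, 6 (Lum, Slc22a6, Igfbp2, Fmod, Aldh1a2 and Igfbp6) were detected in control 2 and control 3 but not in control 1. The raw signal of Lum was not lower in control 1 (152, 152 and 151), and the lowest detected signal was highest on that array. After normalisation 5 of these 11 members were highest in control 2 and 9 were lowest in control 1. The shares of all detected genes were 34.4% and 36.0%. The mean raw signals of the 11 members lay between 140 and 171, near background, and 3 of the members were on no array, so their order says little. The fibrillar collagens Col1a2 and Col3a1 and the retinoid-binding Crabp2 were on no array, Col1a1 was detected in control 3 alone and Slc22a2 in control 1 alone. In tissue pools, fewer cells of a type and less RNA per cell cannot be told apart. The choroid plexus genes did not follow this order (level 7.26, 7.34 and 7.11), the ventromedial list differed by 0.15, and globins were lowest in control 1 but highest in control 3; what part any of these has in the spread was not tested.

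**Figure D5:**
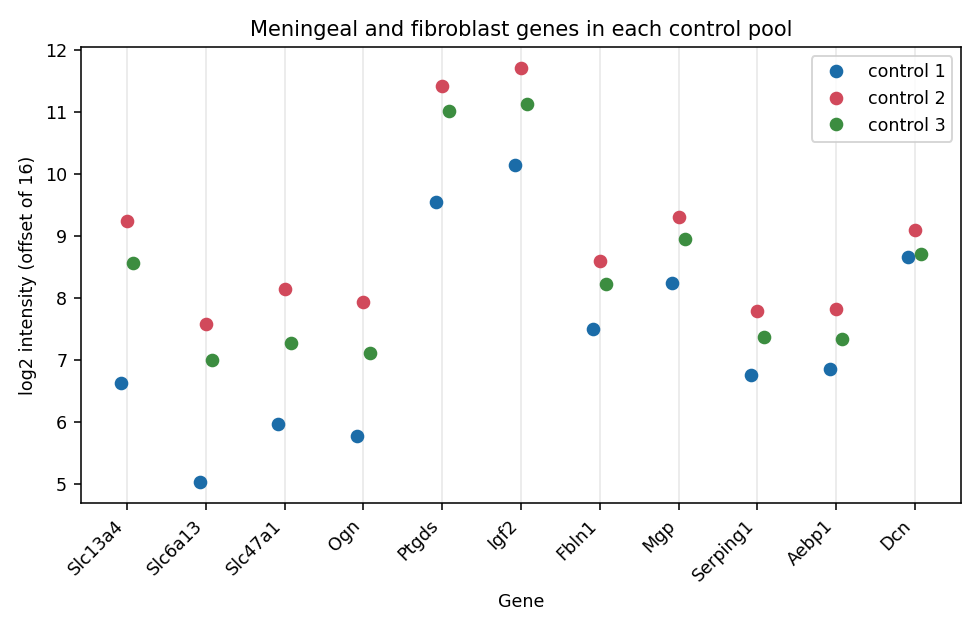
Log2 intensity (offset of 16) in each control pool of the 11 detected genes of the meninges and fibroblasts list, ordered by range. For every gene the point of control 2 is highest and that of control 1 lowest, from Slc13a4 with a range of 2.60 to Dcn with the narrowest range.

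The other genes among the 20 of widest spread did not all share 1 order of the pools. Fgfr1op2 had the largest range of all, with raw signals of 190, 589 and 279. Lrrc57 gave 229, 154 and 276, and Actl6b, a neuronal subunit of a chromatin remodelling complex, gave 1261, 835 and 413. Uap1 gave 175, 270 and 323, Cops8, a subunit of the COP9 signalosome, 747, 733 and 308, and Rgl1 523, 1228 and 1464. Fgfr1op2 was thus highest in control 2, Lrrc57, Uap1 and Rgl1 in control 3, and Actl6b and Cops8 in control 1. Epm2aip1 (516, 1017 and 407), Psmd8, a proteasome subunit (221, 380 and 427), Ipo9, an importin (309, 673 and 601), Nt5c3 (324, 474 and 663), Necap2 (703, 425 and 348), Pou6f1, a POU-domain factor (296, 333 and 203), and Prrt4 (255, 466 and 405) completed the 20 widest together with Slc6a12, a betaine and GABA transporter (158, 228 and 186). Fgfr1op2, Ipo9, Prrt4 and Slc6a12 were highest in control 2 and lowest in control 1, as the meningeal genes were. Of all 45 genes with a 2-fold difference, 22 had this order, 9 of them from the meningeal list. The order was therefore not confined to that list.

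A second probe was available for some of these. Of the 45 genes 31 had a single detected probe and 14 had another. All their other detected probes had the same highest and lowest pool in 6 genes, which were Ccn2, Emp3, Fbln1, Serpina1b, Serping1 and Zfp933, chosen after their values were seen. In Serpina1b the other probes spanned at least 1.14 on the log2 scale and in Ccn2 the other spanned 1.04. Probes detected on fewer arrays were not counted. Among them, a Zfp933 probe detected on 2 arrays had another order. A Fbln1 probe detected on 2 arrays had the same order, and a Fbln1 probe detected on no array had another. None of the other detected probes had both the same highest and the same lowest pool in another 6 genes, which were Atp2c1, Cyb5a, Fgfr1op2, Necap2, Sema5a and Wdr82. In Sema5a, though, another probe shared the highest pool, control 3, and spanned 1.17. The other probe of Fgfr1op2 spanned 0.50, and that of Necap2 0.18, against ranges of 2.83 and 1.39 for the brightest probes. For Actl6b 2 of 3 and for Epm2aip1 1 of 4 other probes had the same order, with ranges of at most 0.56 and 0.50. The 2-fold differences of the brightest probes of Fgfr1op2, Necap2, Actl6b and Epm2aip1 were therefore not seen at that size in their other probes. Nor were those of Atp2c1, Cyb5a, Wdr82 and Zfp933, whose other detected probes spanned at most 0.28, 0.18, 0.60 and 0.60. In Emp3 and Serping1 the other probe spanned 0.86 and 0.69. Another detected probe reached 2-fold only in Ccn2, Fbln1, Sema5a and Serpina1b.

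At the other end, the 10 most even of the 1000 brightest genes had log2 SDs of at most 0.0072. They were Tulp4 (3033, 3072 and 3107), Acot7, an acyl-CoA thioesterase (13853, 13190 and 13180), Prelid3b (2418, 2458 and 2484), Dnajc5, a chaperone of synaptic vesicles (5872, 5824 and 5978), Galnt16 (2978, 3021 and 3080), Sin3b (2350, 2391 and 2434), Atraid (4516, 4574 and 4539), Ddx24 (2556, 2605 and 2641), Itih3 (11442, 11329 and 11489) and Prkcb, a protein kinase C (2158, 2193 and 2215). These SDs are of values after quantile normalisation. The 10 genes were picked for the smallest SDs, so other bright genes spread more by that choice. The 14 detected genes of a list of commonly used reference genes had a median log2 SD of 0.11, against 0.10 over all detected genes. Ywhaz was the most even of the 14 detected, with an SD of 0.04 and raw signals of 7336, 7367 and 7294. Actb (5822, 6426 and 6529) and Gapdh each had an SD of 0.08, and Ppia and Eef1a1 (28783, 25683 and 26862) each had 0.09. Hprt (6408, 5408 and 6497) had 0.14, B2m (2281, 1926 and 2425) 0.18, Rpl13a (850, 695 and 816) 0.18 and Rplp0 (241, 243 and 281) 0.23. The remaining reference genes Tubb5, Pgk1, Tfrc, Gusb and Tbp had SDs between 0.09 and 0.13, against a median of 0.10 over all detected genes, and Sdha was detected on no array.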

How the data were processed

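Per the labels' protocols, total RNA was extracted with Trizol, cleaned on a column with DNase, and made into biotinylated cRNA. Per the file headers, the deposited table holds 1 average signal and 1 detection p-value per probe on every array; the signal is an intensity on a linear scale that was neither background-subtracted nor scaled. A further deposited table of intensity values, normalised by the authors to a common distribution, served as an alternative. The sources used here name no scanner software.

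The platform annotation gave 1 gene symbol to 34885 probes, several to 18 and none to 10378. Of the 34903 probes with a symbol, 34807 had a gene ID found in RefSeq (GRCm38.p6). Raw signals ranked the genes. For the spread between pools, the 3 control arrays were processed with limma 3.58.1 in R 4.3.3 (neqc: normexp from the detection p-values, offset of 16, quantile, log2), tested on simulated data. Fold differences are on this log2 scale, and the number of arrays limits their precision. Python 3.11.15 with pandas 2.3.3 and matplotlib 3.10.9 did the rest. With 1 group no test was made.

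The members, the markers and the 48 gene lists (963 genes) were chosen with earlier results of these data known. Named genes followed a rule: the 30 brightest, every marker and ventromedial list member and Sirt1, up to 5 brightest detected members and up to 4 members on no array of each other list, the 20 genes of widest range, up to 8 members of any list whose level differed by over 0.5 between pools, the 10 most even of the 1000 brightest, and the reference and sex-linked genes. Other named genes are said to be chosen after their values were seen; the remaining meningeal list members are among them.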

Additional observations from a re-analysis of the deposited data

How the results depend on the processing

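The number of genes with at least a 2-fold difference between pools, 45, moved with the processing: it was 15 on raw signal, 19 in the authors' normalised table, 24 with an offset of 50, and between 13 and 29 with 1 pool left out. Raw signal and the authors' table keep the background and a larger offset compresses dim probes, and fewer pools give a smaller range. It was 43 with all 6 arrays normalised together, 62 with no detection filter, 37 at a detection p under 0.01, 35 with the mean over probes and 36 without the meningeal list, an alternative chosen after seeing the data. The median SD of 0.10 was 0.0633 on raw signal. The range of the meningeal list between pools, 1.59, was 0.54 to 1.59 with 1 pool left out, 1.01 on raw signal, 1.12 in the authors' table and 1.58 with all 6 arrays. Detected genes numbered 9597 at a detection p under 0.01, 10960 on at least 2 arrays, 11950 on at least 1, and 10494 to 10583 with 1 pool left out. Of 845 list genes with a probe 583 were detected, and 546 to 669 under the alternatives. Of the 30 brightest genes 29 were shared with both normalised scales and 20 with a ranking by the mean over probes, which dropped Pmch. Per list, 14 recounts of detected members moved and 274 did not, and 52 recomputed level ranges moved and 194 did not; the range of the exocrine pancreas list, 0.27, was 0.0011 without control 1. No paired analysis was possible because 1 group was described and no test was made.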
